A study of Mus musculus with 6 samples.

Results

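The transcripts described here are those of 10 genes of the ATF/CREB and C/EBP families, chosen as Atf5 and its close relatives Atf1, Atf2, Atf3, Atf4, Atf6, Atf7, Creb1, Cebpg and Ddit3. The choice was by name. All 10 were measured, among 19937 genes whose probe sets carry exactly 1 gene symbol, and the probe set with the highest mean over all 6 arrays stood for each gene. The samples were olfactory epithelium (septa and turbinates of the nose) dissected at postnatal day 0 from homozygous Atf5-/- pups and from Atf5+/+ pups, both of the C57BL6 strain and from crosses of Atf5+/- parents. Each genotype had 3 samples, each pooled from 3 pups of different litters and hybridised to 1 whole-transcript array. The labels name neither the removed part of Atf5, nor a tissue-specific driver of its loss, nor what samples of the same number share.

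Factors of this class carry a basic region that contacts DNA followed by a leucine zipper, and they act as pairs, with themselves or with one another. ATF4 and ATF5 are translated preferentially when the initiation factor eIF2 alpha is phosphorylated by stress kinases, so the level of their RNA is only part of their control. In olfactory sensory neurons of the mouse, the start of odorant receptor expression activates the kinase PERK and with it the translation of ATF5, which takes part in the maturation of the neuron. The arrays measured RNA and no protein.

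The values were log2 levels with array medians of 8.67 to 8.72. Pearson correlations over all probe sets were 0.992 to 0.994 between arrays of 1 genotype and 0.988 to 0.992 between arrays of different genotype. The tissue label was checked against markers of mature olfactory neurons, of which 12 of 12 were measured. Their mean level was 9.19, 9.28 and 9.16 in Atf5-/- arrays 1, 2 and 3, against 11.1, 10.7 and 10.9 in Atf5+/+ arrays 1, 2 and 3. Markers of tissues other than olfactory epithelium were present and differed between arrays and genotypes. The mean over 8 skeletal muscle genes ran from 9.72 to 10.1 in Atf5-/- and from 8.77 to 9.85 in Atf5+/+. All 8 had higher means in Atf5-/- (median log2 difference 0.42), and 0 were called by the test given below. The mean over 5 enamel genes ran from 7.79 to 8.52 in Atf5-/- and from 8.78 to 10.1 in Atf5+/+. All 5 had lower means in Atf5-/- (median -1.98), and 2 were called as lower, beside 3.24% of all genes. The part of the dissection in these differences was not tested. With 3 arrays a genotype the number of arrays limits the precision, and in dissected tissue fewer cells of a type cannot be told apart from less RNA per cell.

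Of the 10 family members, 1 fell in Atf5-/-, Atf5 itself, and none rose, by limma with Benjamini-Hochberg adjustment over all genes at 0.05. Over all genes tested by the same rule, 3.74% were called, 3.24% as lower and 0.502% as higher in Atf5-/-. With the replicate number as a block these shares were 6.57%, 4.46% and 2.11%, and again Atf5 alone of the 10 passed. Against 100 genes called as higher with all arrays, there were 27 without Atf5+/+ array 1 and 31 without Atf5-/- array 2. There were 52 without Atf5-/- array 1 and 53 without Atf5+/+ array 3. The number rose to 107 without Atf5+/+ array 2 and to 127 without Atf5-/- array 3. The other 9 members did not pass (adjusted p from 0.188 for Atf1 to 0.979 for Cebpg). At an unadjusted p under 0.05, 2 of these 9 stood out, Atf1 and Atf4, both with higher means in Atf5-/-, while 16.1% of all genes did so. The same pair had every Atf5-/- array above every Atf5+/+ array, Atf5 had every Atf5-/- array below, and the other 7 overlapped. Arrays of the 2 genotypes did not overlap for 21.1% of all genes, with Atf5-/- above for 10.8% and below for 10.3%.

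**Figure D1:**
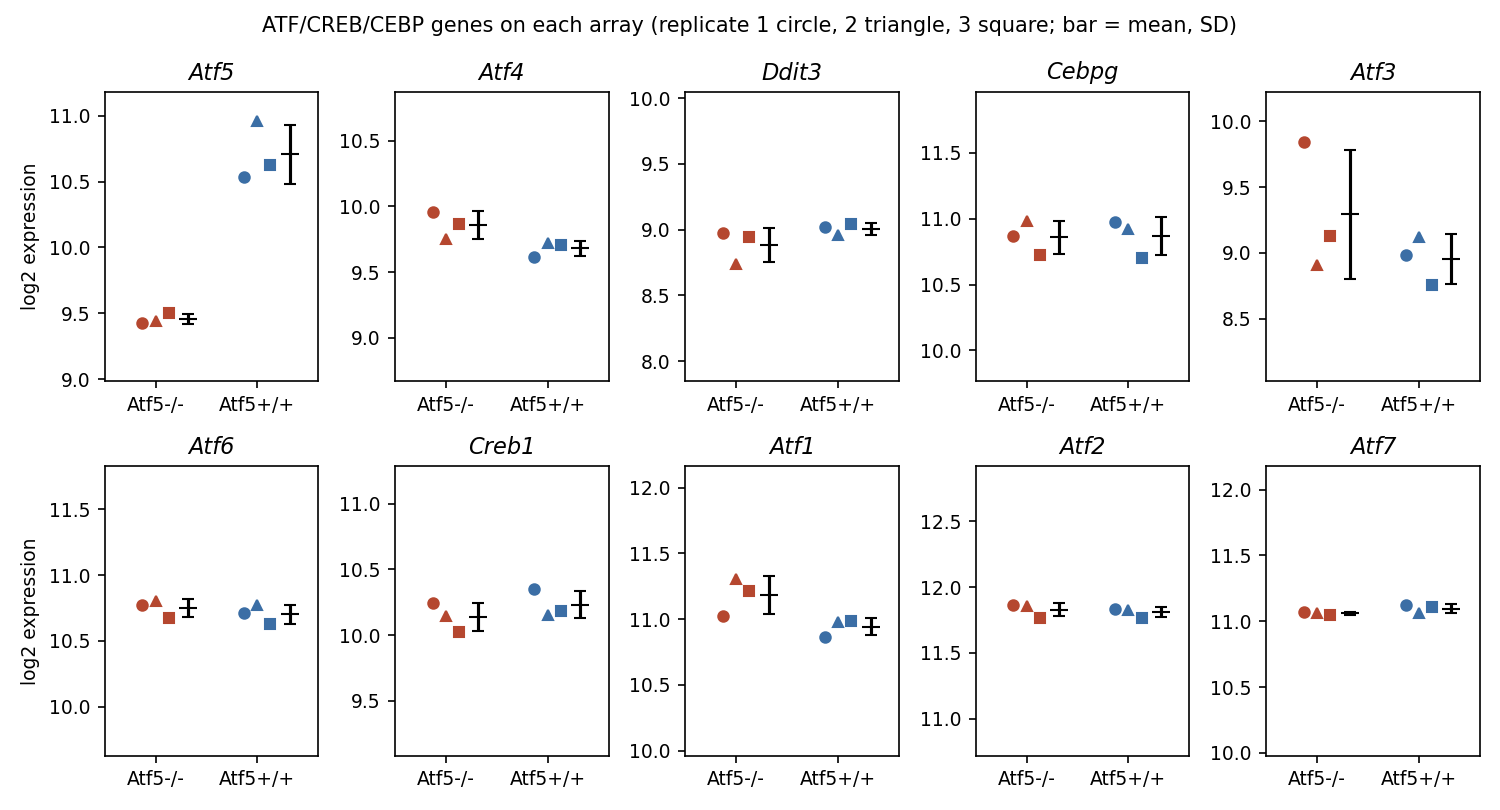
Log2 expression of the 10 genes on each array, Atf5-/- left and Atf5+/+ right, with points for arrays, the mean and SD beside them, and the same span of the log2 axis in every panel. Atf5 separates by genotype (9.46 against 10.71), and Atf3 has 1 high Atf5-/- array at 9.84.

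Atf5 (probe set 10562905) was at 9.43, 9.44 and 9.50 in the Atf5-/- arrays, against 10.54, 10.96 and 10.63 in the Atf5+/+ arrays. Its Atf5-/- values lay close together, and its Atf5+/+ values were spread more widely (SD 0.04 against 0.22, n = 3 each). The log2 difference was -1.25 (SE 0.10, 95% interval -1.48 to -1.02, limma adjusted p = 0.000499), or 2.38-fold lower. A change of that size or larger in either direction was measured for 0.171% of all genes. A signal remained in Atf5-/-, and the place of the probe set relative to the removed part is not given in the sources used here, so that signal cannot be read as remaining Atf5 RNA. With any 1 array left out, the difference was between -1.34 and -1.13, and Atf5 passed each time. Mature neuron markers moved with it: 11 of 12 fell, with a median log2 difference of -1.61, beside 3.24% of all genes called as lower. Omp (olfactory marker protein) was at 9.21, 9.06 and 9.07 in Atf5-/-, against 11.63, 11.003 and 11.40 in Atf5+/+. Of 9 immature neuron markers 3 fell, beside the same 3.24%: Dcx (-0.68), Gng8 (-0.45) and Gap43 (-0.43). Of the 9, 8 lay below 0, while the median difference over all genes was 0.01. The part of these cells in the level of Atf5 was not tested.

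The profiles most like that of Atf5 were sought by the root mean square difference between log2 profiles centred on each gene's mean, over the 6 arrays and all genes. The 5 closest were Gadl1, an amino acid decarboxylase (0.13), the protocadherin Pcdh10 (0.16), the neuropeptide precursor Cartpt (0.16), and the odorant receptors Olfr622 (0.17) and Olfr1537 (0.17), against a median of 0.65 over all genes. Gadl1 was at 8.81, 8.95 and 8.88 in Atf5-/- and 9.99, 10.05 and 9.97 in Atf5+/+. Among the 9 relatives, the closest, Ddit3, ranked 3021 of 19936 genes at 0.59, and Atf3, the farthest, ranked 19814 at 0.85. The 9 relatives stood in the same order by this measure as by their difference between genotypes, from Ddit3 (-0.12) to Atf3 (0.34). Their ranks are therefore no separate result. The order rests on 6 arrays and is a description.

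Atf4 and Ddit3 lie in the stress pathway that controls translation of ATF5. Atf4 (probe set 10425364), which encodes the main effector of eIF2 alpha phosphorylation, was at 9.96, 9.75 and 9.86 in Atf5-/-, against 9.61, 9.72 and 9.71 in Atf5+/+. The Atf5-/- arrays were all higher, the closest by a small margin. The log2 difference of 0.18 (SE 0.07, 95% interval 0.02 to 0.34, limma adjusted p = 0.264) did not pass, and 16.5% of all genes had a difference as large. Ddit3 (probe set 10366881), which encodes CHOP, a factor induced through ATF4 that pairs with C/EBP proteins, was at 8.98, 8.74 and 8.94 in Atf5-/-, against 9.02, 8.96 and 9.05 in Atf5+/+. These groups overlapped, with Atf5-/- array 2 the lowest. Its difference was -0.12 (SE 0.08, interval -0.29 to 0.05, adjusted p = 0.494 by limma). The values of Atf4 and Ddit3 thus had opposite signs, neither past the test.

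Cebpg encodes a C/EBP protein without an activation domain that pairs with ATF4, and its probe set (10562416) read 10.87, 10.98 and 10.73 in Atf5-/- against 10.98, 10.92 and 10.70 in Atf5+/+. The arrays of both genotypes spanned nearly the same range. The difference was -0.01 (SE 0.09), and the interval of -0.22 to 0.20 bounds a change at 1.16-fold lower or 1.15-fold higher. Atf6 (probe set 10359982), the membrane-bound factor of the endoplasmic reticulum that is cut free in the Golgi under stress, read 10.78, 10.81 and 10.67 in Atf5-/- against 10.71, 10.77 and 10.63 in Atf5+/+. The lowest array of both genotypes was number 3. Its difference was 0.05 (SE 0.07, interval -0.10 to 0.20, limma adjusted p = 0.792).

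Atf3 was the most variable member. It encodes a stress-induced factor that represses transcription when paired with itself. Its probe set (10361091) read 9.84, 8.91 and 9.13 in Atf5-/-, against 8.98, 9.12 and 8.75 in Atf5+/+. Only Atf5-/- array 1 was above the Atf5+/+ arrays by a clear margin. The SD was 0.49 in Atf5-/- and 0.19 in Atf5+/+ (n = 3 each), and the pooled SD of 0.37 exceeded that of 99.3% of all genes. The difference of 0.34 (SE 0.21, interval -0.13 to 0.81, limma adjusted p = 0.481) was the highest among the relatives and did not pass. A difference as large in either direction was measured for 4.84% of all genes. Without Atf5-/- array 1 the difference of Atf3 was 0.06, and without Atf5-/- array 2 it was 0.53.

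Atf5-/- array 1 often held the highest value in several lists. Among 17 genes known to respond to cAMP and CREB, 10 (58.8%) had their highest value on Atf5-/- array 1, as had 18.9% of all genes, 46.5% of 43 other bZIP genes, 45.5% of 11 CREB cofactors and 42.1% of 19 genes of the ATF6 branch. Fos, a rapidly induced bZIP gene named after its values were seen, read 9.01, 8.36 and 8.39 in Atf5-/- against 8.55, 8.51 and 8.69 in Atf5+/+. Nr4a1, an orphan nuclear receptor gene chosen in the same way, read 10.60, 9.97 and 9.95 in Atf5-/- against 9.81, 9.91 and 10.10 in Atf5+/+. Both were highest on the array where Atf3 was highest, and the difference between genotypes was 0.00 (SE 0.15) for Fos and 0.23 (SE 0.16) for Nr4a1. Junb, another such gene, was highest on Atf5+/+ array 2, with Atf5-/- array 1 next. It read 8.09, 7.93 and 8.04 in Atf5-/- against 7.94, 8.10 and 7.84 in Atf5+/+. Fos, Junb and Crem stand both among the genes that respond to cAMP and CREB and among the other bZIP genes. The part of the profile of Atf5-/- array 1 in the Atf3 value was not tested beyond leaving the array out.

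**Figure D2:**
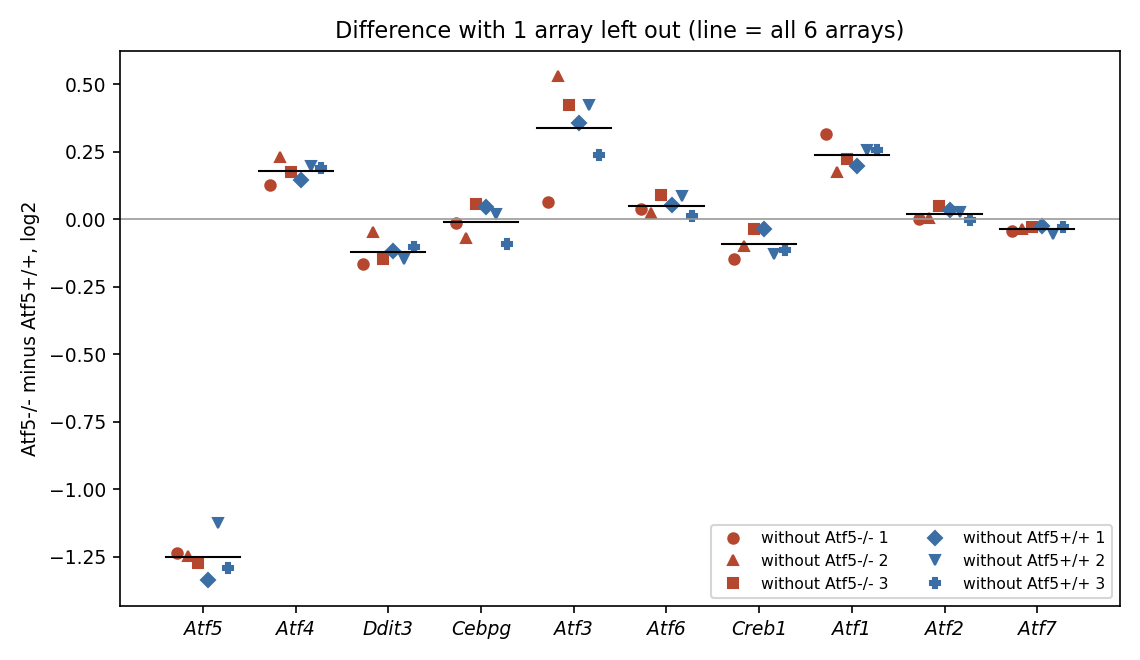
Log2 difference, Atf5-/- minus Atf5+/+, of each member with 1 array left out (red, an Atf5-/- array; blue, an Atf5+/+ array) and with all 6 arrays (black line). Atf5 stays between -1.34 and -1.13, while Atf3 ranges from 0.06 to 0.53.

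Creb1 and Atf1 encode closely related factors that protein kinase A phosphorylates when cAMP rises, the messenger also used in odour transduction. Atf1 (probe set 10426875) read 11.02, 11.31 and 11.21 in Atf5-/-, against 10.87, 10.98 and 10.98 in Atf5+/+. All Atf5-/- arrays were higher, array 1 by little. The difference was 0.24 (SE 0.08, interval 0.05 to 0.42), the lowest p among the relatives, and it did not pass (limma adjusted p = 0.188). Creb1 (probe set 10346943) read 10.24, 10.15 and 10.02 in Atf5-/- against 10.35, 10.16 and 10.19 in Atf5+/+. The groups overlapped, and the difference of -0.09 (SE 0.08, interval -0.27 to 0.09, limma adjusted p = 0.640) had the opposite sign to that of Atf1.

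Atf2 and Atf7 encode factors that stress-activated kinases phosphorylate and that pair with Jun. They were the steadiest members. Atf2 (probe set 10483737) read 11.86, 11.86 and 11.77 in Atf5-/- against 11.84, 11.83 and 11.77 in Atf5+/+, a difference of 0.02 (SE 0.06, interval -0.12 to 0.15). Atf7 was measured by a pair of probe sets, the only member with more than 1. The brighter (10433034) read 11.07, 11.06 and 11.05 in Atf5-/- against 11.12, 11.06 and 11.11 in Atf5+/+, a difference of -0.04 (SE 0.06, interval -0.16 to 0.09). The other (10433032) read 10.78, 10.62 and 10.70 in Atf5-/- against 10.60, 10.46 and 10.55 in Atf5+/+, with all Atf5-/- arrays higher, a difference of 0.16 (SE 0.07) and an adjusted p of 0.390 over all 34760 probe sets by limma. The probe sets of Atf7 thus differed in sign, and neither passed.

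Together the 9 relatives had a median log2 difference of 0.02, against 0.01 over all genes, and a median absolute difference of 0.09, against 0.07. Of them, 5 lay above 0 and 4 below. All 9 intervals lay within 2-fold in either direction, and 8 of 9 within 1.5-fold. The exception was Atf3, whose interval reached 1.75-fold higher. Changes smaller than these bounds are not excluded for the 9 relatives.

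**Figure D3:**
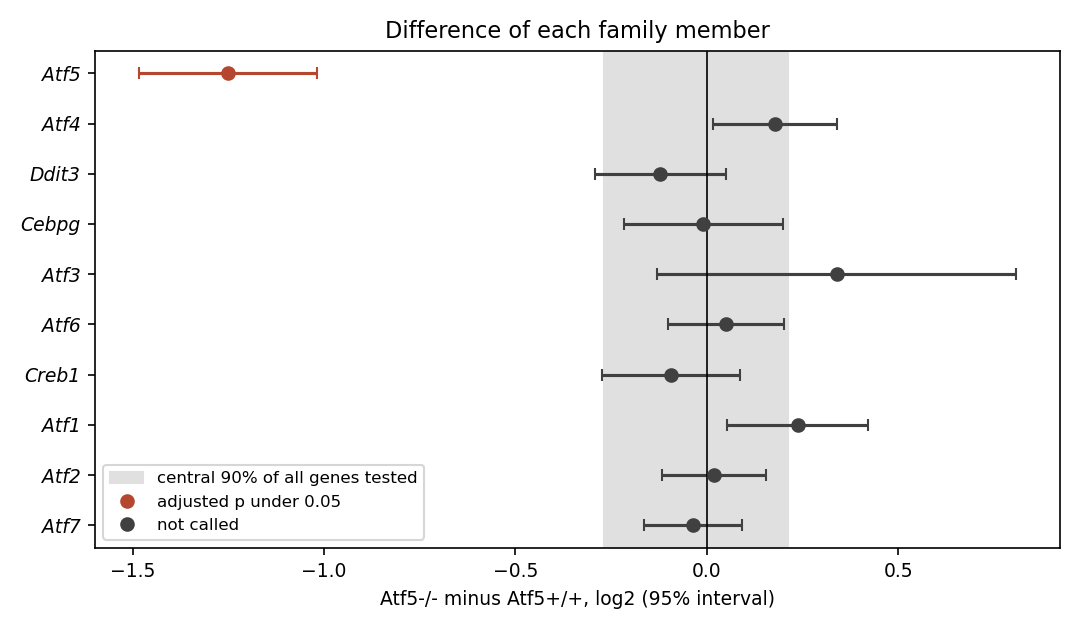
Log2 difference, Atf5-/- minus Atf5+/+, with its 95% interval for each member, Atf5 in red as the 1 past the threshold, and a grey band for the central 90% of all genes tested. Atf5 lies at -1.25, below the band, and Atf3 (0.34) and Atf1 (0.24) lie above it. The intervals of Atf4 (0.02 to 0.34) and Atf1 (0.05 to 0.42) lie above 0 without a call.

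The upstream sequences of Atf3, Atf1 and Atf4 are shown because each holds the core of the cAMP response element (CRE), the site that family members bind. These 3 relatives also had the highest differences, none of which passed. A tie between the core and the difference was not tested. RefSeq windows from 250 bases before to 50 after the start site (GRCm38.p6) were at hand for 9 of the 10 members, all but Atf6, with 2 windows for Atf5. The letters searched, on both strands, were the full CRE TGACGTCA, its core TGACG, which the full CRE contains, and the composite C/EBP-ATF element TGATGNAA. The core was found in windows of 3 members and in 20.8% of all 32851 windows of that length. The composite element was found in 1 member, Atf3, and in 4.0% of all windows, and the full CRE in 0 of the members' windows and in 1.8% of all. Below are the 130 bases before each start site, 5′ to 3′ on the strand of the gene, with matches in capitals.
Atf3 (chr1:191183334-191183463, minus strand): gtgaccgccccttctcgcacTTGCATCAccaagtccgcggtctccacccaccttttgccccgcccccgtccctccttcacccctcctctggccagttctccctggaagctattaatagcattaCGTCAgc
Atf4 (chr15:80255054-80255183, plus strand): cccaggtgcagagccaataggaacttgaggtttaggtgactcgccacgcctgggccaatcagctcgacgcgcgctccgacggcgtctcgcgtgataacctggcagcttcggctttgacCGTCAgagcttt
Atf1 (chr15:100227729-100227858, plus strand): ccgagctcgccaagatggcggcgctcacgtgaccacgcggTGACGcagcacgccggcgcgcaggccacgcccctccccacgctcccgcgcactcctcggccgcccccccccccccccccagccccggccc
In Atf3 the composite element lay at -110 from the start site and the core at -7, both on the opposite strand. In Atf4 the core lay at -12 and, past the printed stretch, at +40, both on the opposite strand, and in Atf1 at -90 on the strand of the gene. A match describes the letters in the window and does not show binding.

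Another 43 bZIP genes were measured. Of these 1 rose, none fell and 42 did not pass, with a median log2 difference of 0.04, beside 3.74% of all genes called in either direction and 0.502% as higher in Atf5-/-. Fosl2, which encodes a partner of Jun in the AP-1 complex, read 10.17, 10.06 and 10.08 in Atf5-/- against 9.66, 9.83 and 9.75 in Atf5+/+. All Atf5-/- arrays were higher, and the difference was 0.36 (SE 0.07, limma adjusted p = 0.0193). The call ended without Atf5-/- array 1 (adjusted p = 0.0844) or without Atf5+/+ array 1 (adjusted p = 0.0864) or array 3 (adjusted p = 0.0567), by limma. Cebpd and Nfil3, bZIP factors of the C/EBP and PAR-related groups, passed besides Fosl2 only when Atf5-/- array 3 was left out, and are named after their values were seen. Cebpd read 8.89, 8.71 and 8.39 in Atf5-/- against 8.31, 8.36 and 8.37 in Atf5+/+, so that array 3 stood close to the Atf5+/+ arrays. Nfil3 read 9.90, 9.88 and 9.57 in Atf5-/- against 9.43, 9.59 and 9.48 in Atf5+/+.

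Transcripts known to be induced through ATF4 or DDIT3 were examined as a list of 35. Of 32 measured, 6 rose, 1 fell and 25 did not pass, with a median of 0.13. Over all genes, 0.502% were called as higher and 3.24% as lower. The 1 that fell was Ppp1r15a, described below. Of the 32 genes, 24 lay above 0 and 8 below. The list was made with earlier results of these data known and is no independent evidence. Slc7a3, a transporter of cationic amino acids, read 9.99, 9.96 and 9.69 in Atf5-/- against 9.13, 9.01 and 9.16 in Atf5+/+, a difference of 0.78 (SE 0.09). The folate enzyme Mthfd2 was 0.55 higher (SE 0.08) and the serine enzyme Shmt2 0.55 higher (SE 0.08) on the log2 scale, and these 3 kept their calls under every alternative tried. Ddit4, an inhibitor of mTOR signalling, read 10.20, 10.25 and 9.996 in Atf5-/- against 9.79, 9.67 and 9.86 in Atf5+/+, a difference of 0.38 (SE 0.08, limma adjusted p = 0.0408). The remaining rises were Chac1 (0.36), a glutathione-degrading enzyme, and Psat1 (0.34), of serine synthesis. With single arrays left out, Chac1 passed only without Atf5-/- array 3, and Psat1 only without Atf5+/+ array 2. The call of Ddit4 held without Atf5-/- array 3 and ended without any other single array, and the count of called genes was 3 without Atf5-/- array 1 or 2 or Atf5+/+ array 1, 4 without Atf5+/+ array 2 or 3, and 5 without Atf5-/- array 3.

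Among 10 measured eIF2 kinases, eIF2 and eIF2B subunits and phosphatase subunits, 1 fell, beside 3.24% of all genes called as lower. The gene that fell, Ppp1r15a, is the same that fell in the list above. Ppp1r15a targets the phosphatase to eIF2 alpha and is itself induced through ATF4 and CHOP. It read 9.14, 9.15 and 9.25 in Atf5-/- against 9.54, 9.76 and 9.42 in Atf5+/+. All Atf5-/- arrays were lower, and the difference was -0.40 (SE 0.09, limma adjusted p = 0.0435). It passed without Atf5+/+ array 3 and with no other single array left out (highest adjusted p = 0.147). Eif2ak3, the gene of the kinase PERK, named after its values were seen, read 9.84, 9.82 and 9.72 in Atf5-/- against 9.79, 9.78 and 9.71 in Atf5+/+, a difference of 0.03 (SE 0.06).

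Lists tied to ATF6, to mitochondrial stress and to CREB were read against the 3.74% called over all genes. None of 19 genes of the ATF6 branch passed by limma (at an unadjusted p under 0.05, 0 higher and 1 lower), with a median of -0.05. The lowest p there was that of the chaperone cofactor Dnajb11, at -0.22 (SE 0.09, limma adjusted p = 0.243). Likewise, of 10 genes for chaperones and proteases of mitochondria, some of which ATF5 is known to induce in mammalian cells, none passed by limma (unadjusted, 1 higher and 0 lower), and the protease Htra2 had the lowest p at 0.22 (SE 0.08, adjusted p = 0.243). Among 11 coactivators and kinases of CREB none passed by limma (unadjusted, 1 higher and 0 lower), the lowest p being that of the coactivator Crtc2 at 0.27 (SE 0.08, adjusted p = 0.124). Of 17 genes responsive to cAMP and CREB 1 rose, the clock gene Per1, which read 11.38, 11.09 and 11.23 in Atf5-/- against 10.92, 10.90 and 10.82 in Atf5+/+. Its difference of 0.35 (SE 0.08, limma adjusted p = 0.0497) lost its call on leaving out any single array other than Atf5-/- array 2 (highest adjusted p = 0.145).

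**Figure D4:**
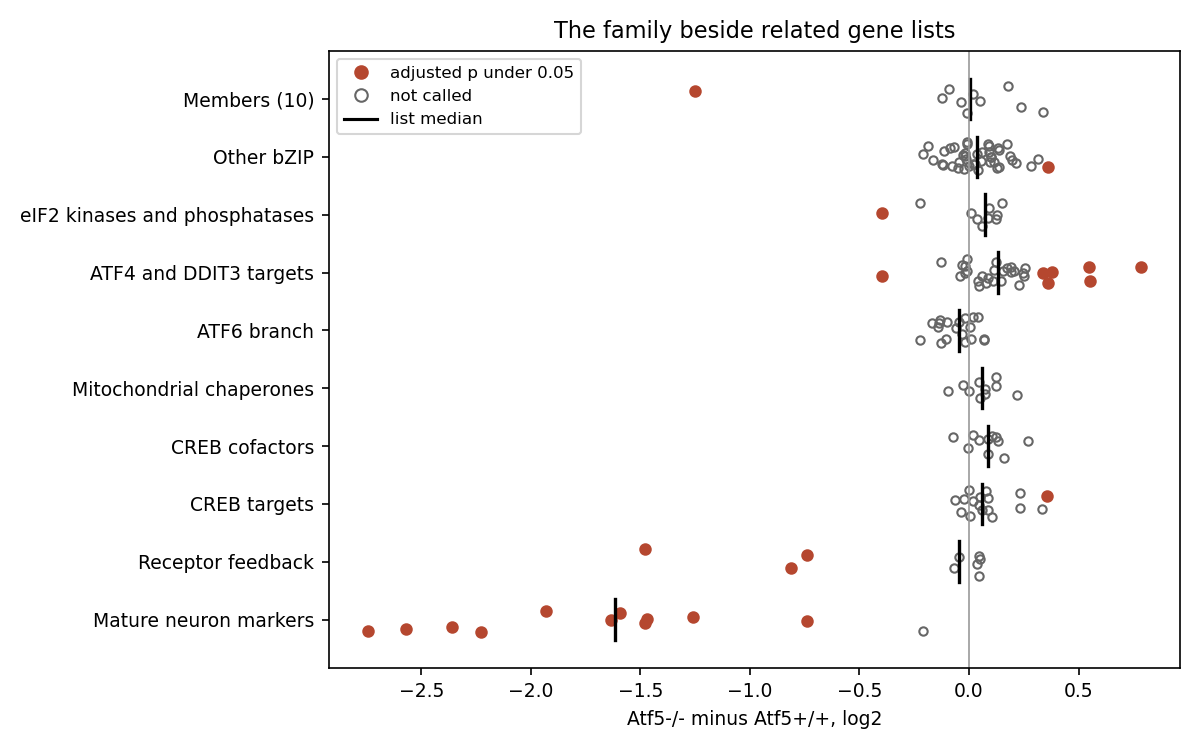
Log2 difference, Atf5-/- minus Atf5+/+, of the genes of each list (points, filled where adjusted p was under 0.05) with the list median (bar). The 9 relatives of Atf5 lie from -0.12 to 0.34, while mature neuron markers have a median of -1.61.

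Of 9 measured genes listed for the odorant receptor feedback path around Atf5, 3 fell and 6 did not pass. Over all genes, 3.24% were called as lower. The 6 were Eif2ak3, Kdm1a, Reep1, Lhx2, Ebf1 and Ldb1, and they lay from -0.07 (Ebf1) to 0.05 (Kdm1a). Rtp1, a chaperone that carries receptors to the membrane, read 10.32, 10.41 and 10.17 in Atf5-/- against 11.94, 11.78 and 11.61 in Atf5+/+, a difference of -1.48 (SE 0.10). Rtp2, its relative, differed by -0.81 (SE 0.10) and Adcy3, the adenylyl cyclase of odour transduction, by -0.74 (SE 0.08). These 3 genes are expressed in mature neurons, and Rtp1 and Adcy3 also stand among the 12 markers above. Of the 10 markers outside this path, 9 fell, with a median of -1.78, and the share of that loss in their values was not tested. Kdm1a, the gene of the demethylase LSD1, named after its values were seen, read 11.17, 11.17 and 11.04 in Atf5-/- against 11.07, 11.09 and 11.08 in Atf5+/+, a difference of 0.05 (SE 0.06).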

How the data were processed

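Total RNA of 6 samples was hybridised to 1-colour whole-transcript arrays, and RMA, affy and limma, without versions, are named in the submitters' processing notes. The deposited log2 values were used as they stood. RMA quantile-normalizes arrays, which hides a shift common to most transcripts and can compress differences of dim probe sets. Of 34760 probe sets, the platform annotation gives 1 symbol for 21640, several for 1321 and none for 11799. No other sample's column was present (0), and dim probe sets were kept. Groups and replicate numbers came from the titles.

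Atf5-/- was compared with Atf5+/+ on all 19937 genes by limma 3.58.1 in R 4.3.3 (lmFit and eBayes, no covariate, 2-sided), and called at 0.05 after Benjamini-Hochberg adjustment over all genes. The procedure was tested on simulated data. SE is limma's moderated standard error. The family members and gene lists were chosen with earlier results of these data known. Genes named were the members, up to 5 called genes per list by size or, with none, the one of lowest p, and the 5 genes most like Atf5. Across genes, arrays of equal number had deviations from their group means correlated at 0.295, 0.122 and 0.234, each above 0.1, which by the rule used here pairs the samples, from the data and not the labels. The fit printed has no block, so its SE, intervals and p-values leave the pairing out. The blocked fit is given where it changed a call of a family member or pathway list, or moved a count by over 1.5 times. It is also given for Atf1.

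Alternatives were the replicate block, quantile normalization, median centring, filters at the 30th percentile or the median, the mean of probe sets, all probe sets, a trended and robust prior, and each array left out. Eif2s1, Pycr1, Gdf15, Aars, Mbtps2 and Prkaca were not analysed here.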

Additional observations from a re-analysis of the deposited data

How the results depend on the processing

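The count of 1 called family member, Atf5, was the same under all 14 alternatives, and none of the 9 relatives passed under any of them that tested it (Ddit3 fell below the median filter). The lowest adjusted p among the relatives was 0.0619, for Atf1 with the replicate block. The block gave 1310 called genes over all, 421 higher and 889 lower in Atf5-/-, against 745 (100 higher, 645 lower) without it. It changed no call of a family member or of the other genes named above. Among the ATF4 and DDIT3 targets it added a call for Eif4ebp1 as higher, for 8 called against 7. The count over all genes was 432 with the 30th percentile filter and 286 with the median filter, filters that test fewer genes. It was 321 with both the fit and the adjustment made over all probe sets, and 410 to 649 with 1 array left out. With the fit and adjustment over all probe sets, 0 other bZIP genes, 0 eIF2 genes, 3 ATF4 and DDIT3 targets and 0 CREB targets were called. The eIF2 count was 2 after quantile normalization, where Ppp1r15b passed as well, and 0 with the median filter; the CREB target count was 0 after quantile normalization and with the 30th percentile or median filter. With 1 array left out, the counts were 0 to 3 for other bZIP genes, 0 to 1 for eIF2 genes, 3 to 5 for ATF4 and DDIT3 targets and 0 to 1 for CREB targets. Differences near 0 changed sign without a call: with 1 array left out, Cebpg ran from -0.0920 (without Atf5+/+ replicate 3) to 0.0561 (without Atf5-/- replicate 3) and Atf2 from -0.0030 (without Atf5+/+ replicate 3) to 0.0481 (without Atf5-/- replicate 3), and Atf7 was at 0.0639 with the mean of its probe sets. The causes were not tested. No scaling moved the median difference of all genes by more than 0.1.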
